A study of Mus musculus with 2 samples.

Results

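Of the 219409 positions listed as N6-methyladenosine (m6A) in the brain of a newborn hybrid mouse, 14453 were DRACH sites lying more than 1000 nt downstream of the stop codon in a 3′ UTR, and these distal sites are described here. Members were the positions of both site lists combined whose GRCm38 5-mer matches DRACH (D stands for any base but C, R for a purine and H for any base but G, with the methylated adenosine in the middle), on the longest GENCODE M21 coding transcript covering the position on its strand. Transcripts had a complete coding sequence (CDS), both UTRs and 2 or more exons, and distances were counted in transcript nucleotides from the end of the stop codon. The distal sites came from 3497 genes and made up 32.0% of the 45125 DRACH sites in 3′ UTRs and 18.02% of the 80190 DRACH sites on coding transcripts. The 30672 DRACH sites at 1 to 1000 nt past the stop codon, called proximal here, served as the main comparison. Just outside the limit, at 901 to 1000 nt, lay 1286 sites, and just inside it, at 1001 to 1100 nt, lay 1080.

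Both lists came from GLORI, in which glyoxal and nitrite deaminate unmethylated adenosines so that they are read as G while m6A is still read as A. A female mouse of the F1r cross (C57 mother, PWK father) gave poly(A)+ RNA from its cerebellum and its cerebrum at P0, and each tissue was sequenced as 1 library. A position was listed when its methylation rate was above 0.1 on more than 8 reads, and the lists hold positions without rates or read counts. With 1 library per tissue nothing was tested between the tissues, intervals are 95% Wilson intervals (for ratios and differences, normal approximations) that cover counting error over sites only, and neighbouring sites of a gene share its expression and depth. Absent methylation, absent expression and thin read coverage cannot be told apart for an adenosine that is not listed.

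m6A is written co-transcriptionally by the METTL3-METTL14 methyltransferase at DRACH sequences, and is known to concentrate around stop codons and in long last exons. Exon junction complexes are known to keep the flanks of splice junctions free of m6A, which leaves the long terminal exon as the main accessible stretch. Neurons use unusually long 3′ UTRs, which hold binding sites for microRNAs and RNA-binding proteins acting on localisation, stability and translation, and m6A in 3′ UTRs is read by YTHDF proteins.

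Sequences around single distal sites show what the listed adenosines look like far from the stop codon. Each is 21 nt of GRCm38 in transcript sense, with the DRACH 5-mer in capitals. The first set holds, for genes with the most distal sites, with a site particularly far from the stop codon, or both, the most distal site listed in both libraries that has 10 nt of transcript on either side.
Zfp704, chr3:9427188-9427208, minus strand, exon 9 of 9: acctgtacTGACTctgtgtat
Zkscan1, chr5:138105726-138105746, plus strand, exon 6 of 6: acctgcctGAACTgccagaga
Nav1, chr1:135437848-135437868, minus strand, exon 30 of 30: ctgaggatGAACTcttgtttc
Ntrk3, chr7:78176944-78176964, minus strand, exon 17 of 17: aatataacAGACTgtggtgtt
Aak1, chr6:87000132-87000152, plus strand, exon 21 of 21: gagattctGGACTtttgactc
Gprin3, chr6:59347386-59347406, minus strand, exon 2 of 2: aattatgaTGACAttgtctca
Opcml, chr9:28924742-28924762, plus strand, exon 8 of 8: tttggaagAGACTtcctgccc
Zcchc14, chr8:121598951-121598971, minus strand, exon 13 of 13: ggaatgaaGGACAattctccc
Adcy1, chr11:7177294-7177314, plus strand, exon 20 of 20: atttcaacGGACAtgctatct
Grin2b, chr6:135713409-135713429, minus strand, exon 14 of 14: tccagtttGGACTtgttcaaa
The Grin2b site lay 18679 nt past the stop codon and 186 nt before the transcript end, the Ntrk3 site 15605 nt past the stop codon and 995 nt before the end, the Aak1 site 12844 nt past it and 3081 nt before the end, and the Zfp704 site 11589 nt past it and 178 nt before the end. The second set holds the most distal site of genes whose distal sites were listed in the cerebellum alone (Pax7, Tfap2b, En2) or in the cerebrum alone (Pag1, Gria1, Lhx6).
Pax7, chr4:139737325-139737345, minus strand, exon 9 of 9: gtgctgacGAACAttccttct
Tfap2b, chr1:19238007-19238027, plus strand, exon 7 of 7: aaaccatcAGACTctgcctca
En2, chr5:28171514-28171534, plus strand, exon 2 of 2: aatctagaGGACAtgtgtaaa
Pag1, chr3:9687701-9687721, minus strand, exon 9 of 9: tacttaagGAACTgacacggg
Gria1, chr11:57330112-57330132, plus strand, exon 16 of 16: atttgatcAGACActaaatat
Lhx6, chr2:36082387-36082407, minus strand, exon 10 of 10: ctgatcccTGACTttggggaa
The third set comes from vomeronasal receptor gene models, whose distal sites lay in repeat sequence and are treated separately at the end.
Vmn2r79, chr7:87044246-87044266, plus strand, exon 6 of 6: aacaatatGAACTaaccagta
Vmn1r55, chr7:5130968-5130988, minus strand, exon 2 of 2: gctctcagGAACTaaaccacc
All of these sites were in the last exon of their transcript, in the 3′ UTR. Outside the third set, the Opcml site alone was in a soft-masked repeat.

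Most distal sites lay within a few kilobases of the stop codon. The median distance was 1925 nt, with 31.8% at 1001 to 1500 nt, 21.03% at 1501 to 2000 nt, 22.4% at 2001 to 3000 nt, 17.4% at 3001 to 5000 nt, 6.18% at 5001 to 10000 nt and 1.12% (162 sites) beyond 10000 nt. The 3′ UTRs holding them had a median length of 3611 nt over sites, and the median distance to the transcript end was 1115 nt. Thus 69.0% of the sites (68.3 to 69.8%) were nearer to the transcript end than to the stop codon, 26.6% lay in the last 500 nt and 3.03% in the last 100 nt. In a 3′ UTR of up to 2000 nt every member is nearer to the end by the rule. These percentages were not set beside those of all distal DRACH adenosines, so they describe the members and not a preference for the end. The cerebellum list held 7555 distal sites in 2364 genes and the cerebrum list 12747 in 3301 genes. Their median distances from the stop codon, 1939 and 1918 nt, were close to each other, and distal sites were 30.9% (30.3 to 31.5%) of the cerebellum's DRACH sites in 3′ UTRs and 31.3% (30.8 to 31.7%) of the cerebrum's.

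A DRACH adenosine far downstream was listed less often than one near the stop codon. The listed share, the percentage of DRACH adenosines listed as sites among transcripts carrying a site in that library, was 3.49% (3.41 to 3.57%) distally and 11.6% (11.4 to 11.8%) proximally in the cerebellum, where 5.75% of all 743563 adenosines were listed. In the cerebrum it was 4.78% (4.70 to 4.86%) distally and 14.2% (14.0 to 14.3%) proximally, against 7.54% of all 971349 adenosines. The ratio of distal to proximal was 0.301 (0.293 to 0.309) and 0.337 (0.330 to 0.344). Distal adenosines were also listed less often than those in the CDS, at 0.704 times its share in the cerebellum (0.685 to 0.723) and 0.717 times in the cerebrum (0.703 to 0.731). With both lists combined, 5.34% of the 270578 distal DRACH adenosines on coding transcripts with a site were listed, beside 8.11% of all DRACH adenosines on these transcripts.

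The listed share fell steeply within the first 1000 nt and then slowly. In the cerebellum it was 18.4% at 101 to 200 nt past the stop codon, 7.23% at 501 to 1000 nt, 4.62% at 1001 to 1500 nt, 3.22% at 2001 to 3000 nt, 2.56% at 4001 to 6000 nt and 1.37% (1.10 to 1.70%) beyond 10000 nt. The cerebrum followed the same order, with 21.5, 9.18, 6.22, 4.40, 3.60 and 2.41% (2.05 to 2.83%) in these bins. Every bin beyond 1000 nt held listed adenosines in both libraries. The ratio of distal to proximal differed between chromosomes, from 0.170 on chromosome 14 to 0.355 in the cerebellum and from 0.243, again on chromosome 14, to 0.385 in the cerebrum.

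**Figure D1:**
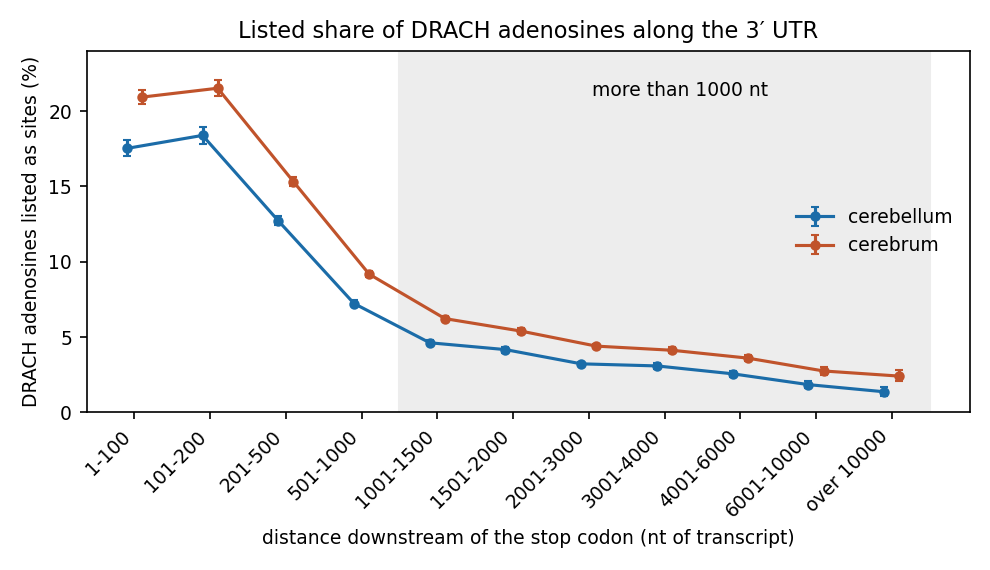
Percentage of DRACH adenosines listed as m6A sites (y axis) by distance past the stop codon in transcript nt (x axis, bins of unequal width), on transcripts carrying a site in that library. Points are 1 library each, bars are 95% Wilson intervals over adenosines, and the grey area marks more than 1000 nt; both libraries fall from about 20% (18.4 and 21.5% at 101 to 200 nt) to 1.37 and 2.41% beyond 10000 nt.

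The decline was present within 3′ UTRs of one length class. In 3′ UTRs of 4001 to 8000 nt the cerebellum share fell from 18.9% in the first 500 nt to 4.65% at 1001 to 2000 nt and 2.89% at 2001 to 4000 nt, and stood at 2.77% at 4001 to 8000 nt. The cerebrum values were 23.4, 6.06, 3.95 and 3.84%. In both libraries the intervals of the last 2 bins overlapped. In 3′ UTRs over 8000 nt, the cerebellum share at 4001 to 8000 nt was 1.39% (1.18 to 1.63%) and the cerebrum share 2.15% (1.90 to 2.43%), and beyond 8000 nt it was 1.64% (1.40 to 1.91%) and 2.66% (2.36 to 2.99%). At 1001 to 2000 nt, the shares of these longest 3′ UTRs, 5.05 and 6.20%, had intervals overlapping those of the 4001 to 8000 nt class.

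**Figure D2:**
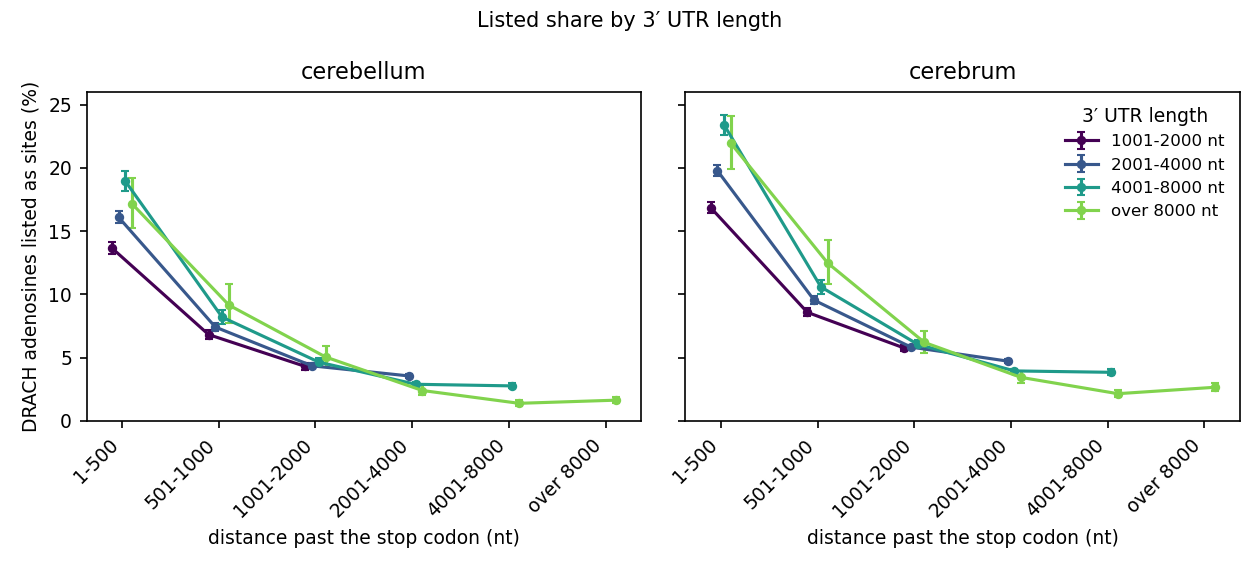
Percentage of DRACH adenosines listed as sites (y axis) by distance past the stop codon in nt (x axis), one line per class of 3′ UTR length and one panel per library, with 95% Wilson intervals over adenosines. The lines come together at 1001 to 2000 nt. At 2001 to 4000 nt the cerebellum shares are 3.55, 2.89 and 2.40% for 3′ UTRs of 2001 to 4000, 4001 to 8000 and over 8000 nt. The intervals of the classes over 4000 nt overlap there. Beyond 4000 nt the class over 8000 nt lies below the class of 4001 to 8000 nt, at 1.39 against 2.77% in the cerebellum.

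The transcript end carried a pattern of its own. In the last 20 nt 0.837% of adenosines were listed by the cerebellum library and 1.18% by the cerebrum library, at 51 to 100 nt it was 2.58 and 3.38%, and it was highest at 201 to 500 nt from the end, at 4.47% (4.24 to 4.72%) and 6.19% (5.95 to 6.44%), before falling to 3.01 and 4.05% more than 4000 nt from it. The share of the last 100 nt was 0.408 times that at 201 to 500 nt in the cerebellum (0.354 to 0.471) and 0.410 times in the cerebrum (0.369 to 0.457). Short library fragments were removed by the protocol, and read coverage near the annotated ends was not measured here.

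The elevation before the end differed between bands of distance past the stop codon. Distance past the stop codon and distance to the end add up to the 3′ UTR length, so the bins hold partly different 3′ UTRs. Position and 3′ UTR length cannot be told apart in these shares. Among adenosines more than 5000 nt past the stop codon, the cerebellum share was 4.15% (3.49 to 4.92%) at 201 to 500 nt from the end, 3.004% at 501 to 1000 nt, 2.06% at 1001 to 2000 nt and 1.01% (0.853 to 1.20%) more than 2000 nt from it. The cerebrum shares were 5.37% (4.67 to 6.17%), 4.35, 3.07 and 1.77% (1.56 to 2.01%). The share at 101 to 500 nt from the end was 3.98 times that more than 2000 nt from it in the cerebellum (3.17 to 5.001) and 3.02 times in the cerebrum (2.54 to 3.60). At 1001 to 1500 nt past the stop codon no such slope was seen: the shares were 4.89% (4.39 to 5.43%) at 201 to 500 nt from the end and 5.09% (4.77 to 5.43%) more than 2000 nt from it in the cerebellum, and 6.74 and 6.79% in the cerebrum. These bands were chosen after the shares had been seen, and the ratio beyond 5000 nt had its interval above 1 in both libraries when repeats, chemosensory receptor genes or 3′ UTRs over 20000 nt were left out, and among genes with 1 qualifying isoform.

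**Figure D3:**
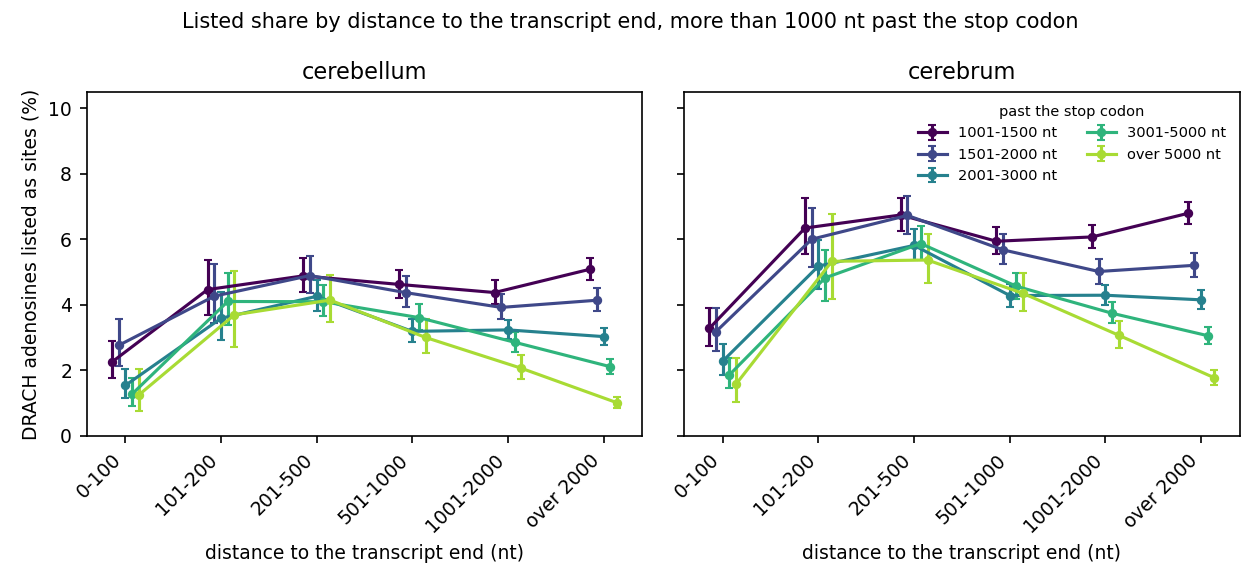
Percentage of DRACH adenosines listed as sites (y axis) by distance to the transcript end in nt (x axis), more than 1000 nt past the stop codon, one line per band of distance past the stop codon and one panel per library, with 95% Wilson intervals over adenosines. The bands come close to each other at 101 to 500 nt from the end and separate more than 2000 nt from it, where the band over 5000 nt is at 1.01% in the cerebellum and 1.77% in the cerebrum.

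Distal sites were shared between the lists less often than proximal ones. Of the cerebellum distal sites, 77.4% (76.5 to 78.3%) were in the cerebrum list too, beside 84.2% (83.6 to 84.7%) of the proximal sites, and of the cerebrum distal sites 45.9% (45.02 to 46.8%) were in the cerebellum list, beside 50.7% (50.1 to 51.3%). In all 5849 distal sites were in both lists, 1706 in the cerebellum list alone and 6898 in the cerebrum list alone. Distal sites made up 29.2% of the 3′ UTR DRACH sites found in both lists, 38.9% of those in the cerebellum alone and 33.3% of those in the cerebrum alone. Beyond 1000 nt the shared percentage changed little with distance, from 78.5% of cerebellum sites at 1001 to 1500 nt to 74.2% (70.8 to 77.4%) at 4001 to 6000 nt and 80.2% (70.3 to 87.5%) beyond 10000 nt. It was 70.0% (63.5 to 75.9%) in the last 100 nt of the transcript and 86.5% (84.6 to 88.3%) for distal GGACT sites.

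The sequence of the distal sites leaned towards the 5-mers that were listed most often. GGACT made up 16.5% of the distal sites (15.9 to 17.1%) and 12.7% of the proximal ones (12.4 to 13.1%), and the 3 5-mers with the most distal sites, all ending in ACT with a purine before it, together 45.6 against 37.6%, a difference of 7.98 percentage points (7.001 to 8.95). By contrast, 5-mers ending in C made up 8.97 against 12.004%. GGACT itself was not more common among the adenosines of the distal sequence, at 4.25% of DRACH adenosines at 1001 to 2000 nt against 6.10% at 1 to 200 nt. Every 5-mer was listed less often distally, but to unequal degrees. On both lists together, 20.9% of distal GGACT adenosines were sites, beside 38.4% of proximal ones, a ratio of 0.545 (0.522 to 0.569). GAACT stood at 14.4 against 34.0% (0.425) and AGACT at 12.7 against 30.1% (0.423). TAACT was at 2.27 against 11.0% (0.206), and TAACA at 0.416 against 2.30% (0.181, 0.136 to 0.240). TAACC, with 36 distal and 43 proximal sites, departed from this order with a ratio of 0.580 (0.373 to 0.902).

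Distal sites lay less often in repeats and near polyadenylation hexamers than unlisted distal DRACH adenosines on the same transcripts, while the other features compared differed less. Within 50 nt on either side, on the transcript strand, a polyadenylation hexamer (AATAAA or ATTAAA) was present at 10.1% of sites and 13.2% of unlisted adenosines, a difference of -3.12 percentage points (-3.64 to -2.60). The difference was -2.37 points (-2.88 to -1.86) when the last 200 nt were left out. Soft-masked repeats held 11.8% of the sites and 17.9% of the unlisted adenosines, a difference of -6.11 points (-6.67 to -5.55). AU content averaged 56.8% ± 8.87 (SD) around sites and 57.8% ± 9.41 around unlisted adenosines. The AU-rich element pentamer ATTTA was near 14.0 and 15.1% of them, and TTTTT near 20.6 and 21.3%, and neither difference held within 25 nt. The Pumilio motif TGTANATA was near 1.85 and 1.81%, with an interval of the difference from -0.197 to 0.262 points. The close means of AU content hide a fall at its upper end. With both lists combined, 8.58% of distal adenosines on these transcripts were listed at an AU content of 0 to 40%. The percentage was 9.20% at 50 to 60%, 6.14% at 70 to 80% and 4.88% (3.71 to 6.39%) at 80 to 100%.

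Another distal site lay within 50 nt for 36.8% (36.1 to 37.6%), while 50.9% (50.3 to 51.5%) of proximal sites had another proximal site within that distance. The listed share was also lower distally, at 5.34 against 15.2% with both lists combined, which by itself lowers the share with a neighbour, so these percentages do not compare grouping. The windows of 500 nt with the most distal sites were picked by that count. Insr, the insulin receptor, had 14 sites between 1555 and 2030 nt past the stop codon out of 19 DRACH adenosines there, 9 listed in the cerebellum and 13 in the cerebrum. Mapt, encoding the microtubule-associated protein tau, had 12 of 16 adenosines listed between 2059 and 2498 nt, 12 in the cerebellum and 11 in the cerebrum. Fut9, a fucosyltransferase, had 12 of 14 listed between 8769 and 9237 nt, 10 in each library, and Zkscan1 13 of 15 between 2710 and 3185 nt, 11 and 13 in the 2 libraries.

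Nearly all distal sites, 99.8%, were in the last exon. The same percentage was not counted for unlisted distal adenosines, so it describes where distal 3′ UTR sequence lies and not a trait of the sites. Of the 27 sites in an upstream exon, 21 belonged to Kcna6, a voltage-gated potassium channel, whose 3′ UTR is interrupted by an intron. They lay in exon 1 of 2, between 1261 and 2993 nt past the stop codon. Kcna6 had 24 distal sites among 58 distal DRACH adenosines, 16 listed in the cerebellum and 22 in the cerebrum. The choice of isoform touched few members. On every qualifying isoform covering them, 95.2% were more than 1000 nt past the stop codon, 3.76% were proximal on another isoform, and 0.360% (52 sites) were covered by a second gene. However, 32.8% lay past the end of a shorter isoform with the same stop codon, and molecules of that shorter isoform do not contain them. The isoform percentages were not counted for unlisted distal adenosines either, so they describe the members and not a trait of the sites.

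A distal site was listed for 37.0% of the 9454 genes with a distal DRACH adenosine, and for 48.3% of the 7237 of them with any site on a coding transcript. The sites were unevenly spread. One site was listed in 1154 genes and 10 or more in 352 genes, which together held 38.2% of all distal sites, and the median was 2 per gene. Of the 3497 genes 3035 had a proximal site as well, 462 had none and 316 had neither a proximal nor a CDS site. Among the 352 genes, 349 had distal sites in both libraries, beside 2168 of all 3497 genes. A gene with many sites has more chances to be in both lists. Of the 352 genes, 53 had at most 2 proximal sites and 19 had none.

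The highest number belonged to Zfp704, a zinc finger protein, with 62 distal sites among 239 distal DRACH adenosines of an 11767-nt 3′ UTR. There were 41 in the cerebellum, 56 in the cerebrum and 35 in both, reaching from 1029 nt to 11589 nt past the stop codon, beside 13 proximal sites and 2 in the CDS. Zkscan1, a zinc finger protein with KRAB and SCAN domains, had 45 (32 in the cerebellum, 44 in the cerebrum, 31 in both), all within a 6340-nt 3′ UTR. Caln1, a calcium-binding protein of neurons, had 39 (20 and 36 in the respective libraries) and Ntrk3, the receptor tyrosine kinase TrkC, also 39 (19 and 35), up to 16545 nt past the stop codon and 55 nt before the end. Nav1, a microtubule-binding neuron navigator, had 37, of which 33 were in the cerebellum, 36 in the cerebrum and 32 in both, the largest overlap but for Zfp704 among these genes.

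In several genes few proximal sites accompanied the distal ones, with proximal and CDS sites counted over all isoforms of a gene. Fam168a had 35 distal sites (30 in each library) beside 2 proximal ones, and Opcml, a neuronal adhesion molecule of the immunoglobulin family, 31 (27 in the cerebellum, 30 in the cerebrum, 26 in both) beside 1 proximal and 1 CDS site. Asxl2, a Polycomb-associated chromatin protein, had 32 (15 and 29) and no proximal site, its first distal site being 3061 nt past the stop codon. Chst10, a sulfotransferase, had 21 (13 and 19), the first of them at 1990 nt, and no proximal or CDS site. Aak1, a kinase of the clathrin adaptor AP2, had 33 (18 and 31) beside 5 proximal and 0 CDS sites, spread from 1668 to 15567 nt. Gprin3, a neurite outgrowth factor, had 31 distal sites (27 and 28) beside 6 proximal and 10 CDS sites. Zcchc14 differed, with 30 distal (22 and 29), 17 proximal and 14 CDS sites in a 3′ UTR of 3573 nt, as did D430041D05Rik, with 31 distal (16 and 30), 14 proximal and 30 CDS sites. Adcy1, a calcium-activated adenylyl cyclase, had 29 distal (18 and 24), 8 proximal and 6 CDS sites.

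**Figure D4:**
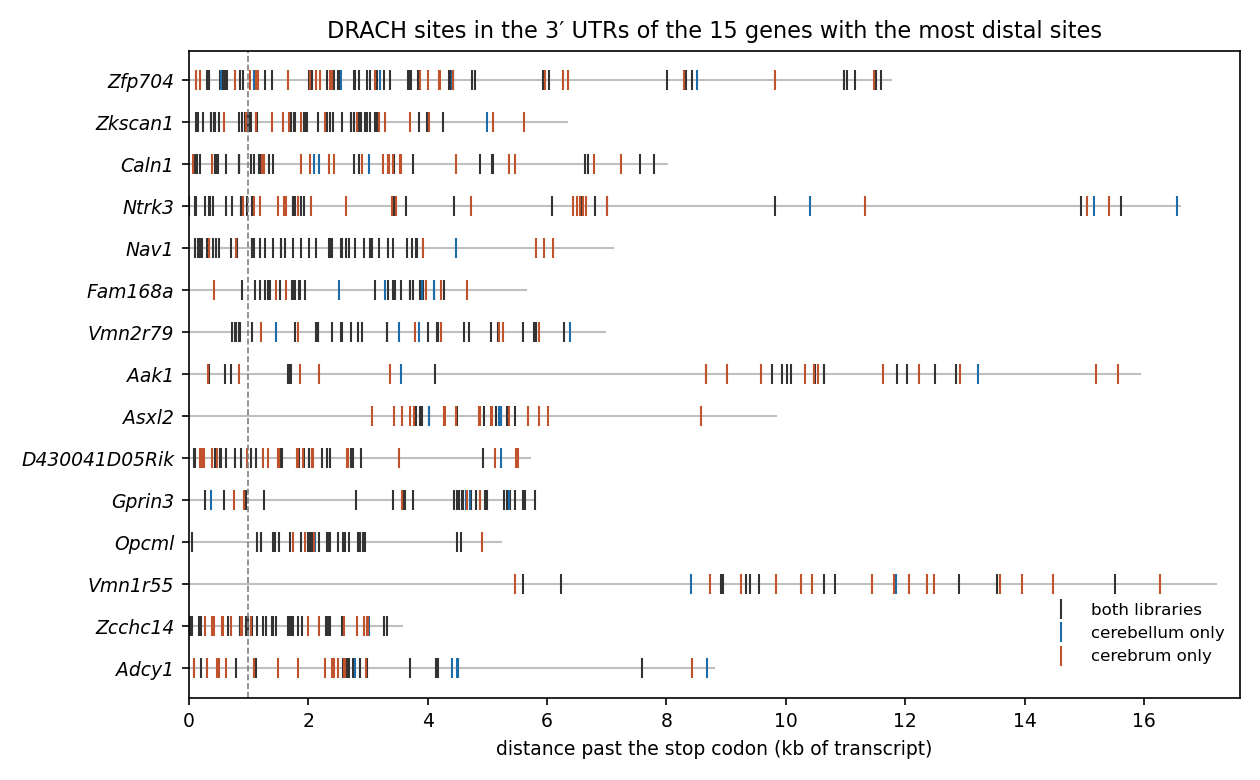
DRACH m6A sites along the 3′ UTR of the 15 genes with the most distal sites (Adcy1 tied with other genes at 29 and was taken by alphabetical order); the x axis is the distance past the stop codon in kb of transcript, the grey line is the 3′ UTR and the dashed line marks 1000 nt. Each tick is a site on the transcript drawn, coloured by whether both libraries or 1 of them listed it; the first site of Asxl2 stands at 3061 nt, and the last sites of Ntrk3 and Aak1 at 16545 and 15567 nt.

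Relative to length, the densest distal 3′ UTR, among genes with 5 or more distal sites and at least 500 nt of distal sequence, was that of Vash2, a tubulin carboxypeptidase, with 29 sites (15 in the cerebellum, 28 in the cerebrum) or 18.9 per 1000 nt, 60.4% of its 48 distal DRACH adenosines. Xkr4 followed with 14.8 per 1000 nt (8 sites, 7 in each library), Ntm, the adhesion molecule neurotrimin, with 14.0 (11 sites, 9 and 10) and Trim62, a ubiquitin ligase, with 13.5 (10 of 14 adenosines, 8 and 9). The other 6 of the 10 densest, Fam49b, Kctd2, 2610008E11Rik, Exoc6b, Plagl1 and Mical3, ranged from 12.3 to 13.2 per 1000 nt. Fam49b had 20 sites (13 and 20) and 1 proximal site, and Exoc6b, a subunit of the exocyst that tethers secretory vesicles, 24 (9 and 24) and 3 proximal sites. All 10 had sites in both libraries, beside 2168 of all 3497 genes with a distal site.

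The most remote sites lay in very long 3′ UTRs. Zbtb20, a transcriptional repressor of hippocampal and cortical development, had 26 sites (8 and 24) from 3414 to 22729 nt past the stop codon among 506 distal adenosines. Grin2b, the NMDA receptor subunit GluN2B, had 14 (7 and 13) among 318, and 37 sites in its CDS. The gene model D10Wsu102e, with an annotated 3′ UTR of 122583 nt, had 14 sites (7 and 10, 3 in both) among 2243 adenosines, or 0.624%, and 92.9% of its sites were in soft-masked repeats.

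In 5 genes 3 or more distal sites were listed in the cerebellum and none in the cerebrum, and in 159 genes the reverse, with the cerebrum list being the longer one. The cerebellum genes were Pax7 (6 sites) and Ebf3 (3), transcription factors of neural development, Tfap2b (4), the AP-2 beta transcription factor, En2 (3), a homeobox gene of the midbrain and cerebellum, and Dgkk (3), a diacylglycerol kinase. Tfap2b and En2 had no proximal site in the cerebrum either, beside 9 and 5 in the cerebellum, whereas Ebf3 had 10 in the cerebellum and 5 in the cerebrum, and Dgkk 4 and 1. Among those listed in the cerebrum alone were Pag1 (21 sites), a membrane adaptor of Src-family kinase regulation, Gria1 (14), an AMPA receptor subunit, Lhx6 (11), a homeobox gene of cortical interneurons, and Dio2 (9), the deiodinase that activates thyroid hormone. None of these 4 had a proximal or CDS site in the cerebellum, beside 6, 10, 6 and 5 proximal sites in the cerebrum. Lower expression and lower methylation cannot be told apart in such genes, and the genes were picked by this difference. Of all genes with a distal site, 2364 had one in the cerebellum, 3301 in the cerebrum and 2168 in both. The counts of 5 and 159 genes were not repeated for proximal or CDS sites, so they do not describe a trait of distal sites.

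Distal sites were listed for most genes of the neuronal groups that have a distal DRACH adenosine, counted here beside the 37.0% of all genes and the 48.3% of genes with any site. The gene lists, here and for the regulators below, were chosen with earlier results of these data known. The shares were not matched for expression or for the length of distal sequence, and enrichment was not tested. Among synaptic adhesion molecules and postsynaptic scaffolds, 35 of the 37 with a distal DRACH adenosine had a distal site (27 in the cerebellum, 35 in the cerebrum), with Opcml, Nlgn3 (22 sites), the postsynaptic neuroligin that binds neurexins, and Tenm4 (12), a teneurin, in front. Of the receptors and channels 34 of 39 had one, among them Gabrb1 (27), a GABA-A receptor subunit, and Grik3 (21), a kainate receptor subunit. Axon guidance genes had one in 29 of 37, with Srgap3 (23), a Rac GTPase-activating protein of Slit-Robo signalling, 20 of whose sites were in both lists, Unc5d (22), a netrin receptor, and Plxna2 (21), a semaphorin co-receptor. For neural transcription factors it was 31 of 38, with Bcl11b (28), which specifies corticospinal neurons, 14 in the cerebellum and 28 in the cerebrum, and Foxp2 (21), a forkhead transcription factor, with 18 and 17. The median in genes with a site was 4 to 5 in all these groups.

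Regulators of RNA and chromatin had distal sites too, counted again beside the 37.0% of all genes and the 48.3% of genes with any site. Among RNA-binding proteins 35 of 48 had one, with Tnrc6c (18), a partner of Argonaute in microRNA silencing, and the neuronal splicing factors Nova1 (16) and Nova2 (16) leading. Nova1 had 14 in the cerebellum and 12 in the cerebrum, no proximal site and 11 CDS sites. Genes listed for microRNA and translation control of messages with long UTRs had one in 18 of 21. In front were Pan3 (16), a subunit of a deadenylase, Larp4b (14), a poly(A)-binding protein partner, and Dicer1 (12), the microRNA-processing nuclease. Microtubule and motor genes had one in 17 of 23, with the kinesins Kif21b (26) and Kif1b (21), and Mapt (20), with 19 in the cerebellum, 18 in the cerebrum, and 2 proximal sites. Chromatin regulators had one in 20 of 29, with Kmt2a (19), a histone methyltransferase that also had 62 CDS sites, and Tet3 (11), a methylcytosine dioxygenase. Of 39 ribosomal protein genes, 4 had a distal DRACH adenosine and 1, Rpl22, a distal site.

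Gene models of vomeronasal, olfactory and trace amine receptors (Vmn1r, Vmn2r, Olfr, Taar) made up 406 of the distal sites, or 2.81%, in 107 genes. These were 12.1% of the 881 such genes with a distal DRACH adenosine, below the 37.0% of all genes, and on the transcripts with a distal site 4.31% of their distal adenosines were listed, beside 8.73% in other genes. These receptors are known from sensory neurons of the nose. None of these 107 models had a CDS site in either library, and they had 25 proximal sites. Soft-masked repeats held 99.5% of their distal sites (98.2 to 99.9%) but 58.3% of the unlisted distal adenosines on the same transcripts, while in other genes the numbers were 9.23 and 15.4%. GGACT made up 9.36% of their sites and 16.7% in other genes. Of their cerebellum sites, 78.7% were in the cerebrum list, beside 77.4% in other genes. Vmn2r79 had 35 distal sites (28 and 31 in the libraries, 24 in both), Vmn1r55 30 (14 and 28), Olfr46 25 (17 and 23), Vmn1r81 18 (13 and 13) and Vmn2r76 17 (9 and 16), all of them in repeats. How uniquely reads map to these repeats was not measured here. Without these models 14047 distal sites remained, and the distal to proximal ratio was 0.345 in the cerebrum.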

How the data were processed

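GLORI was carried out by the authors on poly(A)+ RNA from the cerebellum and the cerebrum of 1 female F1r mouse at P0, 1 library each. Per the study's methods, GLORI-tools was run by the authors against mm10 and against a version of it with PWK alleles at SNPs. Sites from either run were pooled per library and filtered to a rate over 0.1 on over 8 reads. Deposited lists give chromosome, position and strand, so the unit is a genomic position, and depth is unknown. The cerebrum list was deposited under a name that also contains the abbreviation for cerebellum; the sample record decided the tissue.

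Sites were placed on GENCODE M21 transcripts of GRCm38 (the assembly mm10 names), a release differing from the one the methods name. The 5-mer was read from GRCm38, so an adenosine present in PWK alone was not counted as DRACH. Each base belonged to the longest covering isoform. Soft masking is that of the RefSeq copy of GRCm38. The 5-mer and stop codon of each distal site were checked against the GENCODE transcript sequences: the stop codon was found for all 14453 and the same 5-mer for 14447, the remaining 6 running past the transcript end. Intervals are Wilson at 95%. Named genes were the 15 with the most distal sites (ties by symbol), the 10 densest (of those with enough sites and distal length), the 5 with the most remote site, the 5 with most sites in one library alone, the 5 with most sites and no proximal site, and the first 3 of each gene list; Insr, Fut9 and Kcna6 were chosen after their values were seen. Some genes that the rule names are not reported here. Members and lists were chosen with earlier results of these data known. Python 3.11.15, numpy 2.4.6, pandas 2.3.3, scipy 1.17.1 and matplotlib 3.10.9 were used.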

Additional observations from a re-analysis of the deposited data

How the results depend on the processing

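The alternatives on chemosensory receptor genes, and the ratio beyond 5000 nt with its alternatives, were chosen after seeing the data. The number of distal sites was 23137 at a limit of 500 nt, 6815 at 2000 nt and 5849 for sites in both libraries. The distal to proximal ratio stayed below 1 under every alternative run. For the cerebellum (0.301) and the cerebrum (0.337) it was 0.368 and 0.364 upstream of the last listed site of each transcript, 0.273 and 0.300 in 3′ UTRs over 2000 nt, 0.311 and 0.347 without repeats, 0.289 and 0.325 at 500 nt, and 0.319 and 0.355 at 2000 nt. It was 0.334 in the cerebellum over transcripts with a site in either library, and 0.345 in the cerebrum without chemosensory receptor genes; over the autosomes it ran from 0.170 to 0.355 and from 0.243 to 0.385. The last 500 nt were listed 1.11 and 1.13 times as often as the rest of the distal 3′ UTR, but the last 200 nt 0.803 and 0.808 times, the reverse; among transcripts with a site in the last 500 nt the ratios were 1.96 and 1.55. Beyond 5000 nt the cerebrum ratio (3.02) was 3.69 without chemosensory receptor genes, 3.84 in genes with 1 qualifying isoform and 2.66 without 3′ UTRs over 20000 nt. The cerebellum ratio (3.98) was 4.79, 4.68 and 3.48 under the same alternatives. The difference in sharing of cerebrum sites (-4.85 points) was -3.71 at 2000 nt and -7.30 in genes with a site in both libraries. The GGACT share ratio (1.30) was 1.46 for sites in both libraries and 1.55 relative to the GGACT share among adenosines. Within 25 nt, within 100 nt and for sites in both libraries, the difference was -0.221, -3.05 and -0.0137 points for ATTTA, 0.212 (the reverse), -2.88 and -0.0443 for TTTTT, -1.72, -4.88 and -3.91 for the polyadenylation hexamers, and -0.309, -1.50 and -0.580 for AU content. A neighbour was found within 25 nt for 22.0% and within 100 nt for 53.2% of sites, and within 50 nt for 31.5% inside the cerebellum list and 35.6% inside the cerebrum list. The cause of these shifts was not tested. No paired analysis was possible because each tissue has 1 library. Fewer reads and less methylation cannot be told apart in lists without counts, and sites read on few molecules were not separable from deeply read ones.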
